A study of Mus musculus with 6 samples.

Results

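Proteins that are secreted or placed in membranes fold in the endoplasmic reticulum (ER), where chaperones hold unfolded chains and disulfide isomerases join their cysteines. When unfolded chains build up, the sensors IRE1, PERK and ATF6 raise the production of chaperones and of factors that send misfolded proteins to degradation, which is known as the unfolded protein response. PERK also belongs to the integrated stress response: like the kinases that sense amino acid shortage, haem shortage and viral RNA, it phosphorylates the initiation factor eIF2, which lowers general protein synthesis while the mRNA of the transcription factor ATF4 is translated more. ATF4 in turn drives genes of amino acid supply and, under lasting stress, genes such as Ddit3 (CHOP) that are linked to cell death. In the kidney, both arms are best known from injured tubule cells, and tubule cells make and recycle large amounts of membrane transporters.

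The genes described here are 32 members of these responses, found by their names among the 54532 named genes of the count table. They comprise 14 ER chaperones and folding enzymes, 5 sensors and transcription factors, 4 degradation factors and 9 targets of ATF4. They stand on 33 rows, because Ddit3 has a second row of the same name. That row held 0 counts in all 6 libraries, and its 105 bases lie inside the exons of the Ddit3 row used here. All 32 genes passed the filter on low counts.

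The data are mRNA sequencing counts from whole mouse kidney in 2 groups of 3 libraries, labelled Lpar3-/- and wild type (WT). Lpar3 encodes a receptor for lysophosphatidic acid, a signalling lipid. Mice of both groups were kept in a normobaric chamber at 8% oxygen for 12 h before the kidneys were taken, so hypoxia is shared by both groups and the comparison cannot show a response to it. The labels give no strain, age or sex and do not describe the Lpar3 allele. Nor do they tie each library to an animal of its own, and the p-values therefore measure only how far these samples spread, some of which may be technical. In bulk tissue, fewer cells of a type and less RNA per cell cannot be told apart.

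The libraries held 15953794 to 17940438 counts in named genes, of which 51053 to 61393 fell on the 32 genes. All 9 nephron markers listed were detected in every library, with a summed level of 10017 to 10440 CPM (counts scaled to a common library size) in the libraries labelled Lpar3-/- and 9541 to 9734 CPM in WT. Lpar3 itself (chr3:146220963-146286186, GRCm38) had 672, 592 and 580 counts in the libraries labelled Lpar3-/- and 645, 634 and 577 counts in WT. Its level was 36.4 ± 2.51 CPM in the libraries labelled Lpar3-/- and 36.3 ± 1.31 CPM in WT (SD, n = 3 each), so the gene count does not set the groups apart, and the directions below rest on the labels alone. Fold changes have the libraries labelled Lpar3-/- on top and WT below, and come from the quasi-likelihood test of edgeR, with p-values adjusted by Benjamini-Hochberg over the 15225 genes tested.

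Promoters of some of these genes carry the letters by which the 2 arms are known. The ER stress response element (ERSE) is bound by ATF6 with NF-Y, and was searched as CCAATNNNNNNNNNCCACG. A shorter form, ERSE-II, was searched as ATTGG and CCACG with 1 base of any kind between them, the unfolded protein response element (UPRE) as TGACGTGG, and the C/EBP-ATF response element (CARE), the site of ATF4, as TGATGNAA. Both strands were searched in RefSeq promoter windows of GRCm38.p6, from 250 bases before to 50 bases after the gene's start. Windows were given for 29 of the 32 genes, 30 windows in all because Psat1 has 2, and none for Hyou1, Manf and Atf6. No 2 matches of different elements overlapped.

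An exact ERSE stood in 8 of the 30 windows (26.7%), against 39 of 32851 windows of all genes (0.119%). Of the 12 windows of chaperones and folding enzymes, 7 held one (58.3%), and of the 10 windows of ATF4 targets 0 did. The CARE stood in 4 of the 10 windows of ATF4 targets (40%) and in 0 of the 12 of chaperones, against 1304 of all windows (3.97%). ERSE-II stood in 2 of the 30 windows, those of Herpud1 and Dnajb11, against 12 of all windows (0.0365%), and the UPRE in 0 of the 30, against 222 of all windows (0.676%). The genes were chosen as members of these responses, so the shares describe the lists and test nothing. A match describes letters and is no evidence that a factor was bound in these kidneys.

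The stretches below show the elements in the promoters of genes discussed in the results, with the fixed bases of each element in capitals. They read 5′ to 3′ on the strand of the gene, and an element on the other strand appears as its reverse complement (CGTGG with ATTGG for the ERSE, TTNCATCA for the CARE). Positions are counted in bases upstream of the RefSeq start. The stretches of Hspa5, Atf3 and Asns lie inside the span of the gene in the count table. Those of Hspa5 and Asns overlap annotated exons, and that of Atf3 belongs to a start within the gene. The first set shows the ERSE of the chaperones Hspa5 (BiP), Hsp90b1 (GRP94), Calr, Canx and Creld2 and of the ubiquitin ligase gene Syvn1; that of Hsp90b1 holds the element on each strand.
Hspa5, chr2:34772020-34772048, plus strand, 70 to 42 upstream: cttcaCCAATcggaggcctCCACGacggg
Hsp90b1, chr10:86705518-86705671, minus strand, 227 to 74 upstream: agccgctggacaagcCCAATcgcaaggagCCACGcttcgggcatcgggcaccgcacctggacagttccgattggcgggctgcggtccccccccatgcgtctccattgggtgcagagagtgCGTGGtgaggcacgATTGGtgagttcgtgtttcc
Calr, chr8:84847060-84847108, minus strand, 177 to 129 upstream: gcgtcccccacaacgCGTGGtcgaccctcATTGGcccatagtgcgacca
Canx, chr11:50325785-50325833, minus strand, 160 to 112 upstream: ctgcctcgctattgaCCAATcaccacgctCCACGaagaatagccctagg
Creld2, chr15:88819505-88819553, plus strand, 141 to 93 upstream: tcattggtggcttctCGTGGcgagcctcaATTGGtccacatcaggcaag
Syvn1, chr19:6046517-6046565, plus strand, 59 to 11 upstream: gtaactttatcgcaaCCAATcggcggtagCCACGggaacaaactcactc

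The second set shows the CARE of Atf3, Chac1 and Asns. Herpud1 is shown with them because its window held both a CARE, at the left end, and an ERSE-II, at the right end.
Herpud1, chr8:94386302-94386402, plus strand, 127 to 27 upstream: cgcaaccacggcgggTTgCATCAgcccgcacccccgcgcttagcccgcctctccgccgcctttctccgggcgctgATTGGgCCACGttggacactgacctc
Atf3, chr1:191183421-191183458, minus strand, 125 to 88 upstream: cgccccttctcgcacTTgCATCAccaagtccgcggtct
Chac1, chr2:119351034-119351071, plus strand, 208 to 171 upstream: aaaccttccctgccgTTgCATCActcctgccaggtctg
Asns, chr6:7693220-7693237, minus strand, 28 to 11 upstream: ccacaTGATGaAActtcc

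None of the 32 genes passed the test, where 57 of all 15225 genes tested did (0.374%), with 0.250% of all genes lower and 0.125% higher in the libraries labelled Lpar3-/-. DESeq2 and limma-voom also called 0 of the 32. At an unadjusted p below 0.05, 8 of the 32 stood out in edgeR (25.0%), where 9.18% of all genes tested met that threshold. In DESeq2 it was 5 of the 32, beside 4.47% of all genes, there without the filter on low counts. In limma-voom it was 8 of the 32, beside 8.85% of all genes. All 8 in edgeR had a lower mean in the libraries labelled Lpar3-/-, a direction and threshold that 5.21% of all genes met. They were the chaperone genes Hyou1, Dnajb9 and Manf, the kinase gene Eif2ak3 (PERK), the degradation factor gene Herpud1, and Ddit3, Atf3 and Asns among the ATF4 targets.

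Of the 32 log2 fold changes, 28 were negative (87.5%), with a median of -0.09 and a range of -1.70 to 0.15, beside 51.1% negative and a median of -0.0036 over all genes tested. These genes share libraries and regulation, so they are not independent of each other. The groups did not overlap for 5 of the 32 genes, all lower in the libraries labelled Lpar3-/-: Dnajb9, Creld2, Herpud1, Ddit3 and Asns. That is 15.6%, where groups did not overlap for 13.7% of all genes, and were apart with Lpar3-/- lower for 7.12% and higher for 6.58%.

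**Figure D1:**
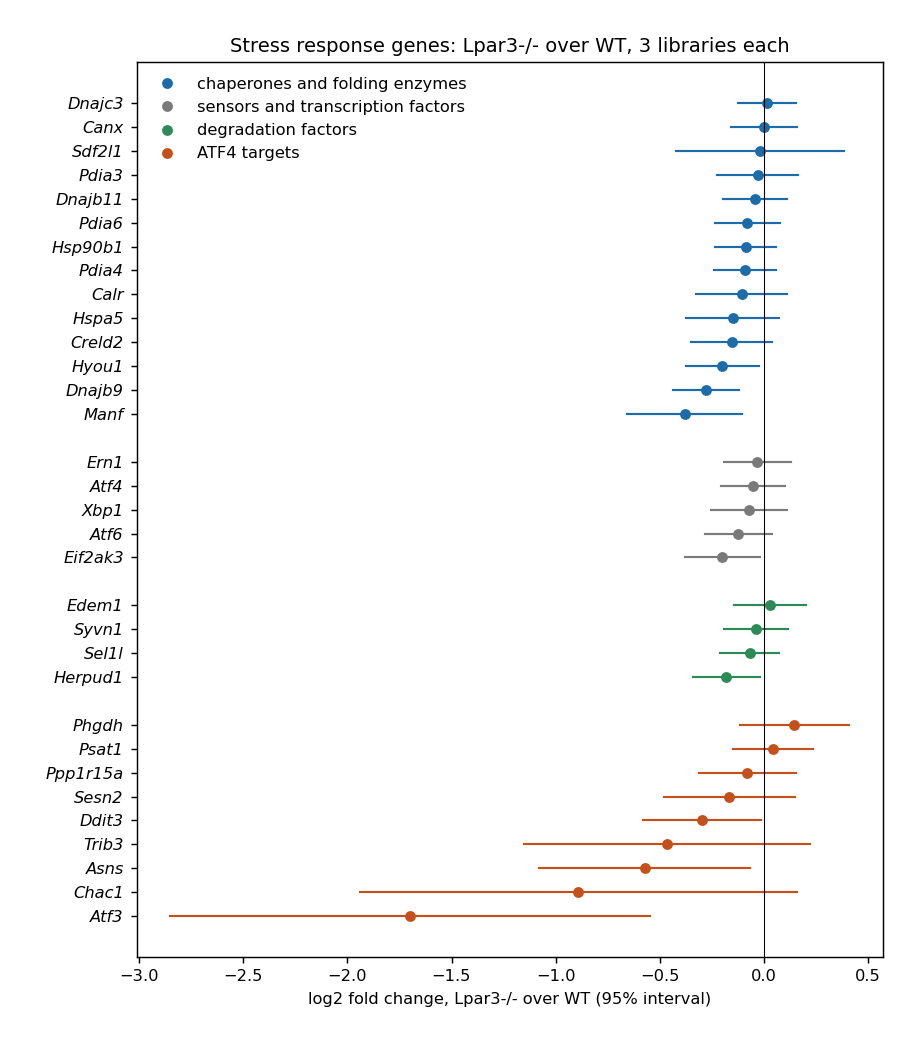
Log2 fold change, libraries labelled Lpar3-/- over WT, of the 32 genes, as points with 95% intervals from edgeR, grouped and coloured by list. Of the 32 points 28 lie below 0, the intervals of 8 exclude 0 before adjustment, and Atf3 at -1.70 has the widest interval.

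Levels per length are given in the authors' FPKM, which are counts scaled by gene length and by a size factor for each library. Means of the 6 libraries ran from 120 FPKM for the degradation factor gene Herpud1 to 0.759 FPKM for the pseudokinase gene Trib3. The calcium-binding chaperones and the isomerase of the same folding cycle came next to Herpud1, with means of 110 FPKM for Calr, 107 FPKM for Pdia3 and 78.2 FPKM for Canx. Hspa5, the main chaperone and the sensors' own inhibitor, averaged 68.2 FPKM. Atf4 and Xbp1, the transcription factors, averaged 40.7 and 36.3 FPKM. The lowest 4 were all ATF4 targets, Asns at 1.26, Atf3 at 1.06, Chac1 at 0.831 and Trib3 at 0.759 FPKM. In this order, 25 of the 31 pairs of neighbours overlapped in their ranges over the 6 libraries and cannot be ranked, and 6 pairs did not overlap, among them Pdia3 above Canx, Hspa5 above Hsp90b1 and Sdf2l1 above Asns.

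**Figure D2:**
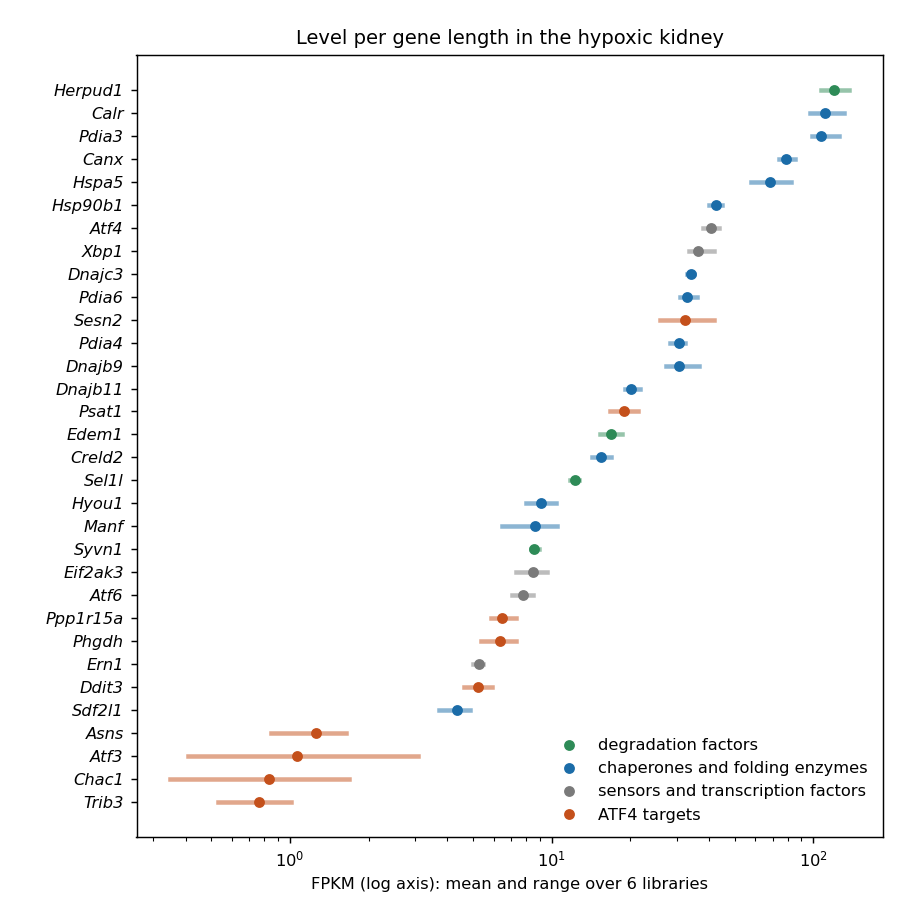
Level of each of the 32 genes in FPKM on a log axis, as the mean (point) and range (bar) over all 6 libraries of both groups, ordered by the mean and coloured by list. Means run from 120 FPKM for Herpud1 to 0.759 FPKM for Trib3, and the bars of Atf3 and Chac1 are the longest.

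Among the sensors and transcription factors, all 5 fold changes were negative, with a median of -0.07, and 1 had an unadjusted p below 0.05. That was Eif2ak3 (chr6:70844515-70905245), which encodes PERK, the kinase that couples ER stress to eIF2. It had 52.1, 44.2 and 47.4 CPM in the libraries labelled Lpar3-/-, against 54.4, 51.9 and 58.7 CPM in WT. The groups overlapped at replicate 1 of Lpar3-/- and replicate 2 of WT. On the log2 scale the difference was -0.20 (SE 0.083, 95% interval -0.38 to -0.02). Its edgeR p was 0.0337, and 0.489 after adjustment. In the GENCODE M21 annotation a transcript named Gm43292 lies opposite 8.05% of its exon bases, and the strand setting of the counting is not given in the sources used here.

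Atf6, the sensor that is cut in the Golgi to release a transcription factor, averaged 69.0 ± 4.77 CPM in the libraries labelled Lpar3-/- and 75.2 ± 3.38 CPM in WT, a log2 fold change of -0.12 (SE 0.074, adjusted p = 0.685 in edgeR). Ern1, which encodes IRE1, the sensor that splices Xbp1 mRNA, averaged 42.9 ± 1.00 CPM in the libraries labelled Lpar3-/- and 43.9 ± 2.22 CPM in WT. Its substrate Xbp1 averaged 116 ± 4.23 CPM in the libraries labelled Lpar3-/- and 122 ± 13.6 CPM in WT. The counts are per gene, so the spliced form of Xbp1 cannot be read from them. Atf4 had 95.3, 98.9 and 90.4 CPM in the libraries labelled Lpar3-/-, against 92.8, 103 and 99.1 CPM in WT, and its groups overlapped. The log2 fold change of Atf4 mRNA was -0.05 with a 95% interval of -0.21 to 0.10. ATF4 is controlled largely through translation, which these data do not measure.

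Among the 14 chaperones and folding enzymes, 13 fold changes were negative with a median of -0.09, and the largest in size was that of Manf. Dnajb9 (chr12:44205559-44210326) encodes ERdj4, a co-chaperone of BiP that also restrains IRE1. It had 69.9, 73.3 and 70.3 CPM in the libraries labelled Lpar3-/-, against 81.6, 93.6 and 83.3 CPM in WT. All 3 libraries labelled Lpar3-/- were below all 3 of WT, and those of Lpar3-/- lay close together. The level was 1.21-fold lower, a log2 fold change of -0.28 (SE 0.073, 95% interval -0.43 to -0.12). Its edgeR p of 0.00262 became 0.188 after adjustment, the lowest adjusted p of the 32 genes.

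Manf (chr9:106838312-106891979) encodes a secreted factor that binds BiP and is released under ER stress. It had 33.0, 24.2 and 22.9 CPM in the libraries labelled Lpar3-/-, against 32.2, 37.2 and 34.96 CPM in WT. Replicate 1 of Lpar3-/- stood within the WT range and the other two below it. The log2 fold change was -0.38 (SE 0.126, adjusted p = 0.340 in edgeR). Exons of 4930524O07Rik and Dcaf1 lie opposite 4.71% and 4.14% of its exon bases.

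Hyou1 (chr9:44379490-44392369) encodes GRP170, a large chaperone that also exchanges nucleotide on BiP and is known as a hypoxia-induced protein. It had 68.1, 59.5 and 58.3 CPM in the libraries labelled Lpar3-/-, against 67.5, 75.8 and 70.4 CPM in WT. Again replicate 1 of Lpar3-/- was the one inside the WT range, and the log2 fold change was -0.20 (SE 0.080, adjusted p = 0.454 in edgeR). Creld2, a small ER protein with isomerase activity, had 20.8, 19.96 and 19.7 CPM in the libraries labelled Lpar3-/-, against 22.2, 23.1 and 22.1 CPM in WT. The groups did not overlap, and the log2 fold change was -0.16 (SE 0.090, adjusted p = 0.669 in edgeR).

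Hspa5 had 300.1, 281 and 246 CPM in the libraries labelled Lpar3-/-, against 270.2, 350.3 and 297 CPM in WT. The groups overlapped, with a log2 fold change of -0.15 (SE 0.103, 95% interval -0.37 to 0.07). Hsp90b1, which encodes the ER form of HSP90, averaged 168 ± 8.18 CPM in the libraries labelled Lpar3-/- and 178 ± 3.62 CPM in WT. Exons of 1810014B01Rik lie opposite 10.3% of the exon bases of Hsp90b1. Those of Gm15344 and Gm25745 cover 2.08% and 3.3% on the same strand. Calr, the soluble lectin chaperone, averaged 308 ± 25.7 CPM in the libraries labelled Lpar3-/- and 332 ± 44.7 CPM in WT. Canx, its membrane-bound relative, averaged 370.0 ± 2.89 CPM in the libraries labelled Lpar3-/- and 370.0 ± 26.8 CPM in WT, with a 95% interval of the log2 fold change of -0.16 to 0.16.

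Of the disulfide isomerases, Pdia3 works with the lectin chaperones, and Pdia4 and Pdia6 are found with BiP. Pdia3 averaged 336 ± 6.47 CPM in the libraries labelled Lpar3-/- and 343 ± 44.5 CPM in WT, and the log2 fold changes of Pdia4 and Pdia6 were -0.09 and -0.08. Dnajb11 (ERdj3) and Sdf2l1, which bind BiP and its clients together, had log2 fold changes of -0.04 and -0.02. Sdf2l1 was the lowest of the chaperones at 4.35 FPKM, and its interval, -0.42 to 0.39, was the widest of the list. Dnajc3 (P58IPK), a co-chaperone also named as an inhibitor of PERK, had the one positive value of the list, 0.02. Apart from Dnajb9, Manf, Hyou1 and Creld2, the genes of this list had adjusted p-values of 0.739 to 1.00 in edgeR.

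Among the 4 degradation factors, 3 fold changes were negative with a median of -0.05. Herpud1 (chr8:94386438-94395377) encodes HERP, a membrane protein of the complex that moves misfolded proteins out of the ER. It had 278, 265 and 252 CPM in the libraries labelled Lpar3-/-, against 295, 320.2 and 286 CPM in WT, and the groups did not overlap. Its fold change on the log2 scale was -0.18 (SE 0.074, 95% interval -0.34 to -0.02, adjusted p = 0.471 in edgeR). Sel1l and Syvn1 encode the adaptor and the ubiquitin ligase (HRD1) of that complex, and their log2 fold changes were -0.07 and -0.04. Edem1, which picks out glycoproteins that failed to fold, had 0.03. Intervals of these 3 genes lay within -0.21 and 0.20.

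Among the 9 ATF4 targets, 7 fold changes were negative with a median of -0.30. Replicates also varied more here: the median coefficient of variation was 12.5% in the libraries labelled Lpar3-/- and 10.9% in WT, against 4.73% in the libraries labelled Lpar3-/- and 6.20% in WT for chaperones and folding enzymes. Over all genes tested that median was 8.08% in the libraries labelled Lpar3-/- and 10.4% in WT. The ATF4 targets also include the members of lowest FPKM, Asns, Atf3, Chac1 and Trib3. Ddit3 (chr10:127290774-127296288) encodes CHOP, a transcription factor of lasting ER stress. It had 7.97, 8.38 and 7.98 CPM in the libraries labelled Lpar3-/-, against 9.65, 10.2 and 10.04 CPM in WT, from 133 to 140 counts a library labelled Lpar3-/- and 166 to 173 in WT. The groups did not overlap and replicates lay close together, with a log2 fold change of -0.30 (SE 0.130, 95% interval -0.58 to -0.02, adjusted p = 0.515 in edgeR). Exons of Mars lie opposite 3.97% of its exon bases.

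Atf3 (chr1:191170296-191218039) encodes a stress-induced repressor of the ATF/CREB family. It had 1.37, 0.882 and 0.983 CPM in the libraries labelled Lpar3-/-, against 1.19, 6.69 and 2.72 CPM in WT, or 24, 14 and 17 counts labelled Lpar3-/- and 21, 113 and 45 counts in WT. Replicate 2 of WT stood far above the rest, and replicate 1 of WT lay within the range of Lpar3-/-. Its fold change on the log2 scale was -1.70 (SE 0.528, 95% interval -2.85 to -0.55, adjusted p = 0.291 in edgeR). Without replicate 2 of WT it was -0.84 with an unadjusted p of 0.0716, and without replicate 1 of WT it was -2.11 with an adjusted p of 0.0336, the one fit with a library left out that called any of the 32 genes.

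Asns (chr6:7675169-7693254) encodes asparagine synthetase, a classic target of ATF4 under amino acid shortage. It had 3.47, 2.33 and 2.54 CPM in the libraries labelled Lpar3-/-, against 3.67, 4.26 and 4.54 CPM in WT, or 37 to 61 counts a library labelled Lpar3-/- and 65 to 75 in WT. The groups did not overlap, though replicate 1 of each group came near the other. On the log2 scale the difference was -0.57 (SE 0.232, 95% interval -1.08 to -0.07, adjusted p = 0.466 in edgeR).

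Chac1, which encodes an enzyme that breaks down glutathione, had 0.854, 1.45 and 0.578 CPM in the libraries labelled Lpar3-/-, against 0.790, 1.78 and 2.78 CPM in WT, from 10 to 46 counts a library. Its groups overlapped, and the 95% interval of its log2 fold change of -0.89 ran from -1.94 to 0.16. Trib3, an inhibitor of AKT that also binds ATF4, averaged 1.37 ± 0.218 CPM in the libraries labelled Lpar3-/- and 1.89 ± 0.415 CPM in WT, with a log2 fold change of -0.46 (SE 0.314). Neither gene had an unadjusted p below 0.05 in edgeR with all 6 libraries, while Chac1 had one of 0.0153 without replicate 1 of WT and one of 0.0419 without replicate 2 of Lpar3-/-.

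Of the remaining ATF4 targets, Sesn2, which senses leucine and restrains mTORC1, had 91.5, 112 and 116 CPM in the libraries labelled Lpar3-/-, against 146, 91.0 and 122 CPM in WT. Replicate 2 of WT, the highest library for Atf3, was the lowest for Sesn2. Ppp1r15a (GADD34), which returns eIF2 to its unphosphorylated state, averaged 18.6 ± 0.284 CPM in the libraries labelled Lpar3-/- and 19.7 ± 2.15 CPM in WT. Phgdh and Psat1, which make serine, had positive log2 fold changes of 0.15 (95% interval -0.12 to 0.41) and 0.04. Both are enzymes of the normal proximal tubule as well as ATF4 targets, and Psat1, at 18.9 FPKM, stood well above Asns at 1.26 FPKM.

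**Figure D3:**
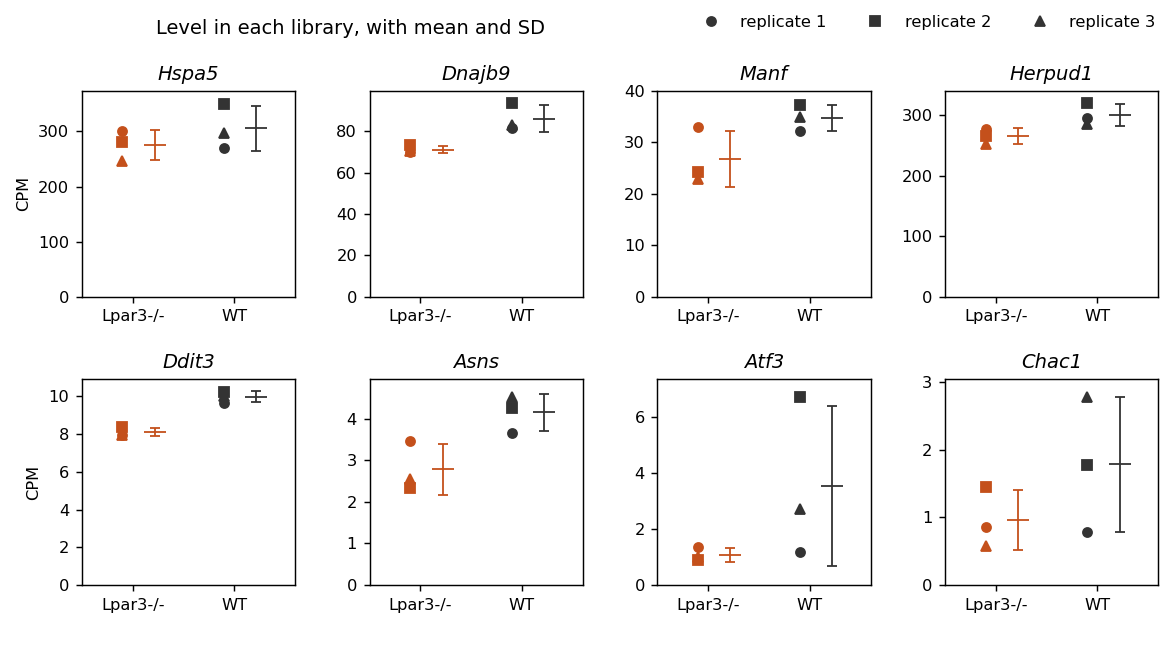
Level in CPM of 8 of the 32 genes, 1 point per library with a mark for each replicate number and bars of mean ± SD (n = 3), libraries labelled Lpar3-/- left of WT. Dnajb9, Herpud1, Ddit3 and Asns have groups apart, and Hspa5, Manf, Atf3, with 1 WT library at 6.69 CPM, and Chac1 overlap.

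Set side by side, the ATF4 targets had a median log2 fold change of -0.30 and the chaperones and folding enzymes one of -0.09, a difference of medians of -0.21. With so few genes the median moves with the choice of members: without Ddit3 and Atf3 the ATF4 targets had a median of -0.17, and the difference was -0.08. Both genes left out had negative values, while Phgdh and Psat1, with positive ones, were kept. The opposite choice is not shown. Relative to the mean of the 6 libraries, the mean log2 CPM of the ATF4 targets was -0.14, -0.14 and -0.28 in the libraries labelled Lpar3-/-, against -0.08, 0.32 and 0.33 in WT. For chaperones and folding enzymes the same deviation was 0.02, -0.09 and -0.11 in the libraries labelled Lpar3-/-, against -0.02, 0.15 and 0.04 in WT. Replicate 1 of WT thus lay between the groups for the ATF4 targets and below replicate 1 of Lpar3-/- for the chaperones, and the 2 lists differed from each other most in replicate 3 of WT, by 0.28.

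Read by promoter, the 10 genes with an ERSE or ERSE-II had log2 fold changes of -0.18 to 0.02 with a median of -0.08. The 5 genes with a CARE, which are Atf3, Chac1, Trib3, Asns and Herpud1, had log2 fold changes of -1.70 to -0.18 with a median of -0.57. Herpud1 is in both sets and sits at the end of each range. The first 4 of the CARE genes are also the 4 with the lowest FPKM, so low level and the CARE cannot be told apart among them.

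**Figure D4:**
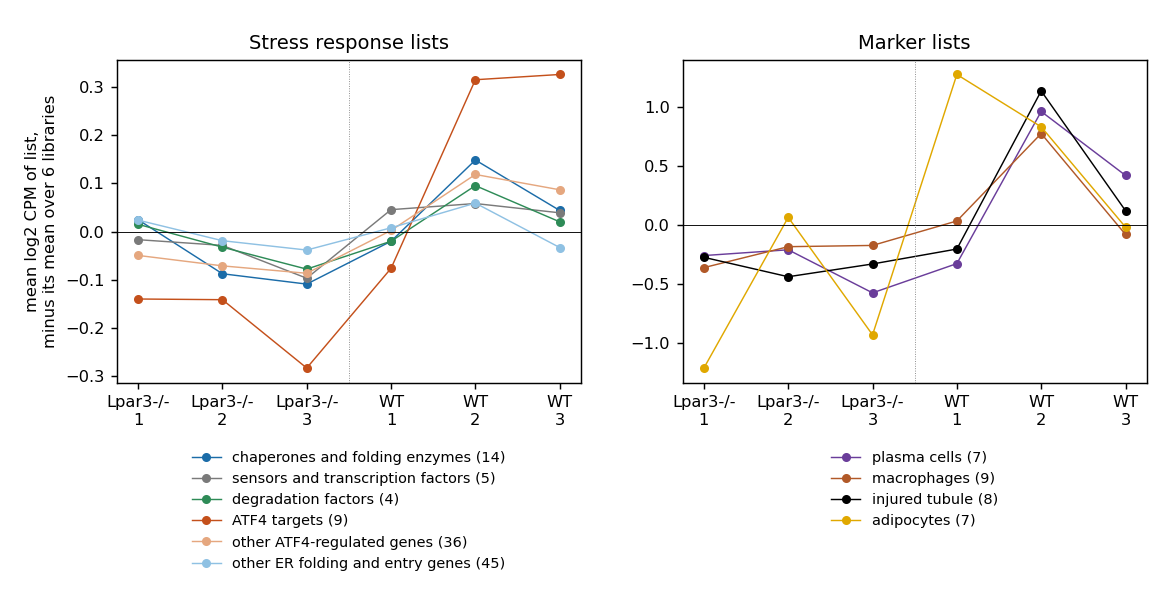
Mean log2 CPM of each list in each library, minus its mean over the 6 libraries, for lists of the stress response (left) and marker lists of other cell types (right), with the number of genes in brackets; lines only join points of a list. Replicate 2 of WT is the highest library for chaperones and folding enzymes, at 0.15, and for markers of plasma cells, macrophages and injured tubule.

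One library stood apart in these genes, most often among the chaperones. Replicate 2 of WT was the highest of the 6 libraries for 18 of the 32 genes (56.2%), beside 21.9% of all genes tested. It was the highest for 12 of the 14 chaperones and folding enzymes (85.7%). Of the 9 ATF4 targets it was the highest for 2 (22.2%) and the lowest for 2, while replicate 3 of WT was the highest for 4. Without replicate 2 of WT, the median log2 fold change of the chaperones was -0.04, in place of -0.09. That of the ATF4 targets was -0.33, in place of -0.30. Negative fold changes then numbered 24 of 32, and those of Calr, Canx, Pdia3 and Xbp1 became positive, at 0.0013, 0.06, 0.08 and 0.02.

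The count of genes with an unadjusted p below 0.05 also moved with single libraries. Shares of all genes tested in the same fit are in brackets. The count was 4 in place of 8 without replicate 2 of WT (8.88%) and 5 without replicate 3 of WT (9.24%). It was 4 without replicate 2 of Lpar3-/- (6.70%) and 2 without replicate 3 of Lpar3-/- (6.30%). Without replicate 1 of WT it was 8 (11.6%), and without replicate 1 of Lpar3-/- it was 7 (8.08%). Dnajb9 met that threshold in each of the 6 fits with a library left out, Atf3 in 5 of them and Manf in 4, the exception for Atf3 being the fit without replicate 2 of WT.

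Summed markers of plasma cells, macrophages, injured tubule and fibroblasts were highest in replicate 2 of WT, and those of adipocytes and endothelium were not. Plasma cells, whose large output of antibody rests on the unfolded protein response, had a summed marker level of 34.97, 32.5 and 28.4 CPM in the libraries labelled Lpar3-/-, against 33.6, 114 and 58.4 CPM in WT. Of the 8 plasma cell markers 7 were tested, and Tnfrsf17, at 0 in some libraries, was not. Log2 fold changes were negative for 5 of the 7 and positive for 2, Mzb1 at 0.78 and Prdm1 at 0.20. Mzb1 was lowest in replicate 2 of WT, at 0.651 CPM. Igha, the heavy chain of immunoglobulin A, had 4.556, 4.597 and 2.543 CPM in the libraries labelled Lpar3-/-, against 5.31, 41.6 and 17.8 CPM in WT. Those 2 WT libraries were also the 2 highest for the ATF4 targets by mean log2 CPM. By summed CPM, in which the more abundant targets weigh most, the ATF4 targets had 235, 239 and 241 CPM in the libraries labelled Lpar3-/-, against 282, 230.3 and 254 CPM in WT, with replicate 1 of WT the highest and replicate 2 of WT the lowest.

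Injured tubule markers, among them Havcr1 (KIM-1), summed to 180, 177 and 176 CPM in the libraries labelled Lpar3-/-, against 199, 335 and 194 CPM in WT, with 8 of 8 detected in every library. Macrophage markers summed to 103, 114 and 123 CPM in the libraries labelled Lpar3-/-, against 123, 191 and 126 CPM in WT, with 9 of 10 tested. Adipocyte markers summed to 124, 197 and 129 CPM in the libraries labelled Lpar3-/-, against 344, 263 and 183 CPM in WT, and fibroblast markers to 209, 221 and 206 CPM in the libraries labelled Lpar3-/-, against 184, 336 and 247 CPM in WT. Endothelial markers summed to 375 to 414 CPM in the libraries labelled Lpar3-/- and 381 to 403 CPM in WT. No gene of the marker lists reported here passed the edgeR test. At an unadjusted p below 0.05 in edgeR, 5.21% of all genes were lower in the libraries labelled Lpar3-/- and 3.97% were higher. Lower at that threshold were 7 of the 8 injured tubule markers, 6 of the 7 adipocyte markers and 4 of the 9 macrophage markers tested. So were 3 of the 7 plasma cell markers tested, 2 of the 7 fibroblast markers and 1 of the 6 endothelial markers. Of the 9 nephron markers 1 was lower and 1 higher at that threshold. The median log2 fold change was -0.70 for injured tubule and -1.51 for adipocyte markers, larger in size than the -0.09 of the 32 genes. The part of these cells in the values of the 32 genes was not tested.

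The other genes of the pathway gave 0 calls among 132 tested, and 10 had an unadjusted p below 0.05 (7.58%), near the 9.18% of all genes. These 10 were not spread evenly over the lists. Of the 45 further genes of ER folding and protein entry, such as the translocon and the oligosaccharyl transferase, 0 had one, and the median log2 fold change was -0.01. Of 23 further degradation genes 0 had one, with a median of -0.04, and of 28 further sensors and regulators 1 had one, with a median of -0.01. The other 9 were among the 36 further ATF4-regulated genes tested (25.0%), 8 of them lower in the libraries labelled Lpar3-/- and 1 higher, with a list median of -0.07.

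The 3 with the lowest p in that list were Cebpb, Slc7a5 and Gdf15. Cebpb, which encodes a transcription factor that pairs with ATF4, had 41.7, 37.3 and 35.02 CPM in the libraries labelled Lpar3-/-, against 46.6, 45.8 and 49.4 CPM in WT. Its groups did not overlap, and the log2 fold change was -0.31 (SE 0.084, adjusted p = 0.195 in edgeR), though exons of Tmem189 lie opposite 20.7% of its exon bases. Slc7a5, the light chain of the leucine transporter LAT1, had 2.11, 2.46 and 2.49 CPM in the libraries labelled Lpar3-/-, against 3.95, 4.67 and 3.14 CPM in WT. Its groups did not overlap either, with a log2 fold change of -0.74 (SE 0.238, adjusted p = 0.318 in edgeR). Gdf15, a stress hormone that lowers appetite, had 9.06, 7.94 and 6.70 CPM in the libraries labelled Lpar3-/-, against 9.26, 17.6 and 11.2 CPM in WT, with replicate 2 of WT again the highest. The groups were apart by a small gap, and the log2 fold change was -0.68 (SE 0.220, adjusted p = 0.318 in edgeR).

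The genes with the lowest p in the other lists were as follows, with their log2 fold changes. Among folding and entry genes these were Srprb, a subunit of the receptor of the signal recognition particle, at -0.22, Sec62 of the translocon at 0.13 and the prolyl isomerase Ppib at -0.14. Among degradation genes they were Rnf5, Man1b1 and Nploc4, at -0.10, 0.09 and -0.09. Among sensors and regulators they were Bbc3 (PUMA), a promoter of cell death downstream of CHOP and p53, at -0.46, the ER-bound transcription factor Creb3l3 at -0.47 and the death receptor Tnfrsf10b at -0.46. In edgeR their adjusted p-values lay between 0.535 and 0.790.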

How the data were processed

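Kidney mRNA of 6 libraries was compared, 3 labelled Lpar3-/- and 3 WT, grouped by their titles. The deposited table gives raw counts, 1 whole number per gene and library. The submitters' processing notes name the build GRCm38 and the tools featureCounts 1.5.0-p3, HISAT2 2.0.5 and DESeq2 1.20.0. Whether strand was used in counting, and how reads shared by several genes were treated, is not given in the sources used here. Calr and Phgdh each have 1 named pseudogene copy in GENCODE M21. The deposited FPKM, made by the authors, equalled counts divided by gene length and by the DESeq2 size factor of the library, on a common scale. The relative deviation was at most 1.28e-07, over genes with at least 20 counts and a count in all 6 libraries. FPKM are thus not scaled by plain library totals. They served for levels per length and an alternative test.

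The 377 of 54909 rows without a name, 0.259% to 0.362% of a library's counts, were left out. Groups were compared with edgeR 4.0.16 in R 4.3.3, by its quasi-likelihood F-test with TMM, the default filter, no covariate, and calls at an adjusted p below 0.05 over 15225 genes. The common dispersion gave a coefficient of variation of 10.5% between replicates. CPM use TMM-scaled totals. List medians have no test. The test was checked on simulated counts first.

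Chi-square statistics per degree of freedom of 4.44 to 7.66 between libraries labelled Lpar3-/- and 13.0 to 13.9 between those of WT showed no library deposited in duplicate. By this measure replicate 1 of WT stood nearer to the libraries labelled Lpar3-/-, at 9.32, 8.34 and 9.57, than to replicates 2 and 3 of WT, at 13.9 and 13.0. The other pairs across the groups had 11.5 to 17.3. Over the whole table the libraries thus did not sort fully by label. Alternatives were DESeq2 1.42.0, limma-voom (limma 3.58.1), RLE and upper quartile normalization, no filter, a stricter filter (10 counts in 3 libraries and a mean of 1 CPM), a block for the replicate number, leaving out each library in turn, and limma on log2(FPKM + 1), with and without a minimum mean of 0.1 FPKM, and on log2(FPKM + 0.1) with it. Promoter windows came from RefSeq (GRCm38.p6), exon overlaps from GENCODE M21. Every member was named, with Lpar3 and, of each further pathway list, the called genes and the 3 of lowest p. The members and all gene lists were chosen with earlier results of these data known. The result of 1 marker list is not reported here.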

Additional observations from a re-analysis of the deposited data

How the results depend on the processing

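Over the 32 genes and 16 alternatives, 489 of 512 log2 fold changes kept their direction, and 23 genes kept it throughout. None of the 32 genes was called except in fits with a library left out, which called 0 to 1, and with no filter. With no filter 2 of the 32 were called (Manf, adjusted p = 0.0147, and Atf3, adjusted p = 1.42e-05, in edgeR), beside 520 of all 26645 genes. In DESeq2, also over 26645 genes, the adjusted p was 0.296 for Manf and 0.0659 for Atf3. Further pathway genes called numbered 4 with no filter. All genes called numbered 57, against 173 in DESeq2, 520 with no filter, 9 by limma on log2(FPKM + 1), 13 on log2(FPKM + 0.1), 4 on log2(FPKM + 1) with no filter, and 12 to 149 with a library left out. With the replicate block, 80 genes and 0 of the 32 were called. Same-numbered libraries of the 2 groups correlated by 0.0026 to 0.051 in their deviations from the group means, and the other pairs by -0.048 to 0.040. The labels name no pairing, and with so few libraries these values cannot decide whether the numbers pair them. The difference of medians, ATF4 targets minus chaperones, was -0.077 without Ddit3 and Atf3 and -0.29 to -0.16 with a library left out. With 1 mismatch allowed, the ERSE stood in 43.3% of the windows (in 494 of 32851 windows of all genes).

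The log2 fold change of Canx, -1.2e-05, was 0.0040 in DESeq2, 0.0024 in limma-voom, 0.0013 with RLE, 0.0020 with upper quartile normalization, 0.00062 with no filter, 0.0018 with the stricter filter, 0.0024 with the replicate block, and 0.0064, 0.0065 and 0.0064 by limma on log2(FPKM + 1), log2(FPKM + 0.1) and log2(FPKM + 1) with no filter. With a library left out it ran from -0.036 to 0.061. The other reversals came with a library left out, with ranges of -0.0059 to 0.036 for Dnajc3, -0.11 to 0.078 for Sdf2l1, -0.19 to 0.0013 for Calr, -0.088 to 0.083 for Pdia3, -0.14 to 0.018 for Xbp1, -0.028 to 0.11 for Edem1, -0.33 to 0.0042 for Sesn2 and -0.043 to 0.098 for Psat1. The cause was not tested. Depth was lowest for Atf3, Trib3 and Chac1, at 10 to 113 counts a library.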
